A study of Homo sapiens with 18 samples.

Results

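The expression of 6 transcription factor genes was examined, namely FOXA1, ELF3, FOXP1, FOXO1, FOXO3 and FOXO4, out of 43735 genes in the count table. They were taken by their gene symbols and had been selected on their measured counts in untreated, RSL3-treated and Fer-1-protected cells. Their values in those comparisons are therefore given as a description, without a test. RNA came from a pair of human multiple myeloma lines of the same origin, MM1S, which glucocorticoids kill, and MM1R, which resists them, so no group holds separate donors. In each line, cells were left untreated, received 5 µM RSL3 for 3 h, or received 2 µM ferrostatin-1 (Fer-1) for 2 h and then 5 µM RSL3 for 3 h, which gave 6 groups of 3 libraries. RSL3 inhibits GPX4, the enzyme that detoxifies lipid peroxides, and so sets off ferroptosis, an iron-dependent death, whereas Fer-1 traps the radicals that spread lipid peroxidation. No group received Fer-1 alone. Replicates 1, 2 and 3 stand for passages 4, 6 and 7 of MM1R cells and passages 16, 22 and 23 of MM1S cells, so that p-values measure the spread between passages of a line. In such bulk libraries, fewer cells of a kind and less RNA per cell cannot be told apart.

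Forkhead (FOX) factors bind DNA through a winged-helix domain. FOXA1 is a pioneer factor that opens compacted chromatin, best known from liver, breast and prostate epithelium, where it prepares sites for nuclear receptors. FOXO factors are held in the cytoplasm when AKT phosphorylates them and enter the nucleus under oxidative stress or growth factor withdrawal, where they induce genes of cell cycle arrest, antioxidant defence and apoptosis, so that their RNA level does not report their activity. FOXP1 is a repressor with roles in B cell development, and ELF3 is an ETS family factor that is typical of epithelia and is inducible by inflammatory signals.

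Total counts were 17635438 to 19368343 per library, so depth was nearly equal in all groups. All 8 plasma cell markers, among them SDC1, PRDM1 and IRF4, were above 1 CPM (counts scaled to a common library size) in every library, whereas 0 of 6 epithelial markers were, and the summed level of those 6 lay between 0.366 and 2.20 CPM. Summed myeloid markers reached at most 0.601 CPM, and 1 of the T cell markers exceeded 1 CPM in all libraries. NR3C1, the glucocorticoid receptor gene that separates the lines, was at 89.9 to 392 CPM in MM1S libraries and at 13.8 to 22.3 CPM in 8 of 9 MM1R libraries. In MM1S the 392 CPM belonged to replicate 1 of RSL3, which also had the lowest TMM scaling factor (0.864). Replicate 2 of MM1R Fer-1 + RSL3 stood apart with 50.2 CPM, and its transcripts of 10 genes that are at least 8-fold higher in MM1S cells reached 48.5% of the MM1S level, against at most 2.80% in the other MM1R libraries. For the 6 genes, fitted Fer-1 changes printed for MM1R are also given without it. Means of other genes, counts over passages and correlations include it.

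FOXA1 lies at chr14:38058757-38065264 on the minus strand of GRCh37 (hg19), the build of the alignments. The coding transcript starts just below chr14:38064455, at the start used for the promoter below, and a transcript with no defined coding sequence starts further upstream and overlaps TTC6 on the opposite strand by 431 bases. ELF3 lies at chr1:201977073-201986311 on the plus strand and overlaps the antisense gene ELF3-AS1. The other members lie at chr3:71003844-71633129 (FOXP1, minus strand), chr13:41129804-41240778 (FOXO1, minus strand), chr6:108881038-109005977 (FOXO3, plus strand) and chrX:70315701-70323382 (FOXO4, plus strand). RefSeq promoter windows (annotated on GRCh38.p14) were available for all 6 members, 14 in all, and each matched GRCh37 exactly at 1 place. The 250 bases before each start were searched on both strands for 10 motifs, which were chosen after the sequences had been seen. For forkhead factors the letters were GTAAACA, and the core letters searched for ETS factors were CGGAAG. AP-1, which binds as a dimer of Jun and Fos proteins, was searched as TGANTCA, and the cyclic AMP response element (CRE) as TGACGTCA. The heat shock element was written as GAANNTTC and CARE, which ATF4 and CHOP bind, as TGATGNAA. The octamer of B cell genes is ATGCAAAT, the letters taken for the TATA box were TATAAA, and the CCAAT box and the antioxidant response element completed the set.

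The FOXA1 window held none of the 10 motifs and was rich in G and C (67.2%). The 151 bases of it that lie outside annotated exons, at chr14:38064554-38064704 on the minus strand, are shown because FOXA1 was higher with RSL3 and close to the untreated level with Fer-1.
FOXA1 promoter: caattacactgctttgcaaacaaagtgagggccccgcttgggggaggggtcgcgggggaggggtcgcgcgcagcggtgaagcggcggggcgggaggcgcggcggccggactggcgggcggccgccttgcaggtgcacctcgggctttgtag

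The ELF3 window held 4 of the motifs, and the stretches around them are shown with the matching letters in capitals because ELF3 had the largest change of the 6 genes. They lie at chr1:201979573-201979602 (the letters searched for the antioxidant response element and the octamer, which overlap), chr1:201979629-201979658 (CCAAT) and chr1:201979669-201979698 (TATA box, 29 to 34 bases before the start). The match to the antioxidant letters is TGAATATGCA, with A after TGA, where the letters allow any base. Whether it acts as an antioxidant response element was not tested.
ELF3 octamer and antioxidant element: aagtggcacTGAATATGCAAATcacctggg
ELF3 CCAAT: aaatcccctccatCCAATgagacaccagct
ELF3 TATA box: caggggacacacTATAAAgccctgagctca

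Of all 35116 promoter windows of this length, 1.63% held the octamer, 10.2% the antioxidant letters, 10.7% the TATA box and 32% CCAAT. The octamer was thus the least common of these letters. The FOX letters GTAAACA were present in 1 window, before start 4 of the 6 FOXP1 starts (2.98% of all windows hold them). Other forms of the forkhead motif were not searched. AP-1 motifs (6.57% of all windows) were present before FOXP1 start 2, FOXO3 start 4 and the FOXO4 start. CARE (3.14%) was found before FOXP1 start 3, and CCAAT before FOXP1 start 6 and the FOXO1 start. These matches describe the letters of the windows, and binding was not measured.
FOXP1 start 4, FOX: caactatgttatTGTTTACtttaccataca
FOXP1 start 2, AP-1: accagaaagaaaTGATTCAgtctgcctgct
FOXO3 start 4, AP-1: ctgtttttgtggTGAGTCAagctgcagtgc
FOXO4 start, AP-1: tacacgactcTGAATCAcaagggagacaat
The FOX stretch lies at chr3:71294404-71294433 (minus strand), and the AP-1 stretches lie at chr3:71592915-71592944 (minus strand), chr6:108909861-108909890 (plus strand) and chrX:70315451-70315480 (plus strand).

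All 6 genes passed the filter on low counts, but ELF3 did so mainly through treated libraries, since 0 of 3 untreated MM1S libraries and 2 of 3 untreated MM1R libraries held 10 or more of its reads. Per kilobase of the canonical transcript, FOXO3 was by far the most abundant in untreated cells, at 80.7 ± 18.7 CPM per kb in MM1R and 86.7 ± 7.24 in MM1S (SD, n = 3). FOXO4 followed in MM1R with 9.08 ± 2.19 and FOXP1 with 7.53 ± 0.680 CPM per kb, and these 2 levels overlapped within their spread. In MM1S the order of the same pair was turned, with 8.43 ± 0.177 CPM per kb for FOXP1 and 5.15 ± 1.28 for FOXO4. FOXA1 (4.07 ± 0.611 and 4.44 ± 0.871 CPM per kb in MM1R and MM1S) and FOXO1 (2.18 ± 0.420 and 3.30 ± 0.787) were lower, and ELF3 was near the limit of detection with 0.172 ± 0.0535 and 0.0549 ± 0.0240 CPM per kb.

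**Figure D1:**
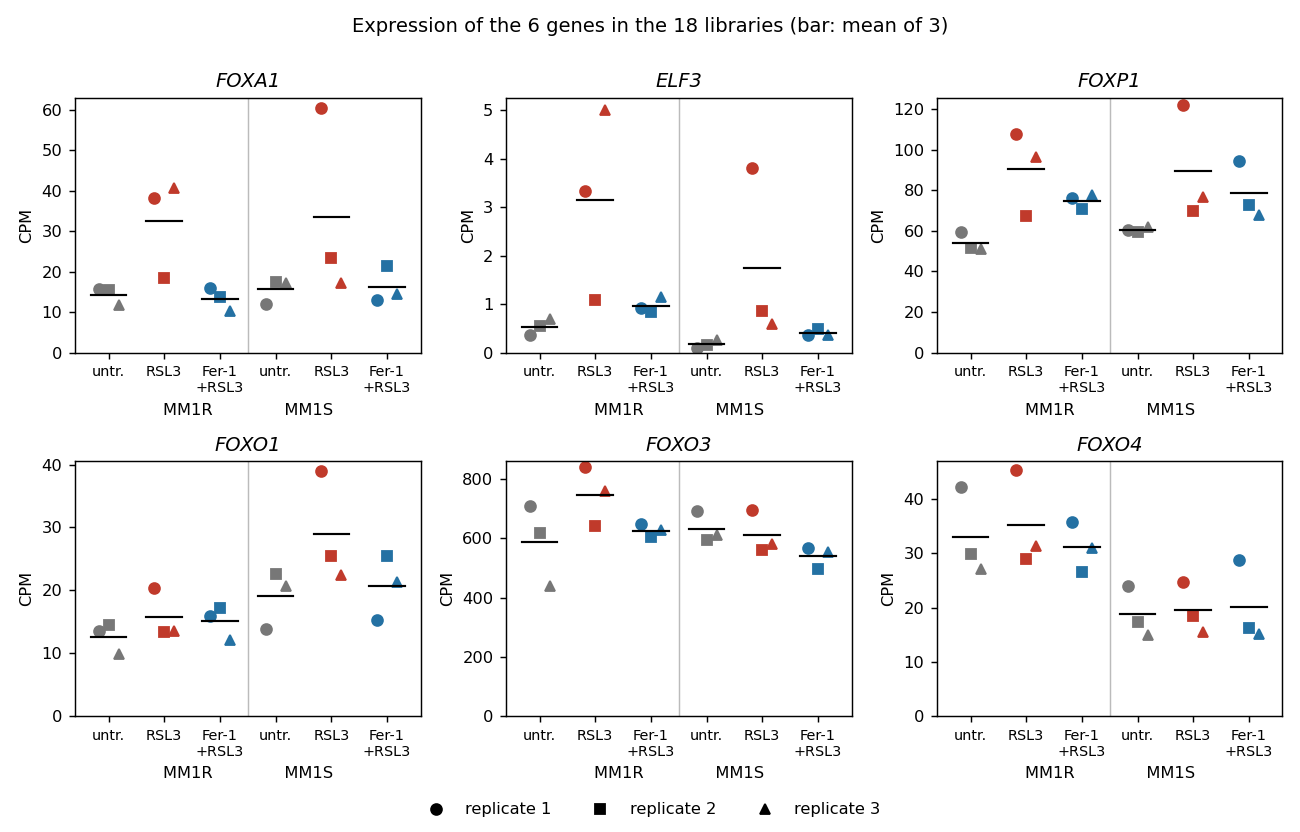
CPM of the 6 genes (vertical axes, each from 0) in the 18 libraries, by line and treatment (horizontal axes), with a symbol for each replicate and a bar for the mean of 3. Mean FOXA1 and ELF3 were highest with RSL3 and lower with Fer-1, although RSL3 and Fer-1 libraries overlapped for FOXA1 in MM1S and for ELF3 in MM1R. FOXP1 was above untreated cells with Fer-1 as with RSL3, and FOXO4 differed more between lines than between treatments.

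FOXA1 was higher with RSL3 in both lines, and with Fer-1 it was at the level of untreated cells. In MM1R cells, FOXA1 was at 15.6, 15.5 and 11.8 CPM in untreated replicates 1, 2 and 3, at 38.2, 18.4 and 40.8 CPM with RSL3 and at 16.03, 13.7 and 10.3 CPM with Fer-1 + RSL3. All MM1R libraries with RSL3 were above all untreated and all Fer-1 libraries of the line, and replicate 2 was the lowest of them. In MM1S cells, the untreated libraries held 12.1, 17.5 and 17.2 CPM, the RSL3 libraries 60.5, 23.3 and 17.1 CPM, and the Fer-1 + RSL3 libraries 12.9, 21.4 and 14.5 CPM. The groups overlapped in MM1S, where replicate 1 held the highest value of the series and replicate 3 was close to its untreated passage. The fitted log2 fold change for RSL3 was 1.18 (SE 0.39) in MM1R and 1.10 (SE 0.38) in MM1S, or 2.27-fold and 2.15-fold, and without replicate 1 of MM1S RSL3 the MM1S value was 0.38. Within passages, FOXA1 was higher with RSL3 in 5 of 6 passages, by 1.29, 0.25 and 1.78 on the log2 scale in MM1R and by 2.31 and 0.41 in replicates 1 and 2 of MM1S, and differed by -0.01 in replicate 3.

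From RSL3 to Fer-1 + RSL3, FOXA1 was lower in 6 of 6 passages, with log2 fold changes of -1.28 (SE 0.39) in MM1R and -1.04 (SE 0.38) in MM1S, and -0.31 in MM1S without replicate 1 of MM1S RSL3. This comparison shares its RSL3 libraries with the previous one. Relative to untreated cells, the Fer-1 libraries differed by -0.10 (SE 0.39) in MM1R and 0.06 (SE 0.38) in MM1S, with 3 passages above and 3 below, and without the library that stood apart the MM1R values were -1.30 against RSL3 and -0.12 against untreated cells. Of the mean RSL3 increase in CPM, -5.12% remained with Fer-1 in MM1R (-6.14% without the library that stood apart) and 3.74% in MM1S (14.7% without replicate 1 of MM1S RSL3, a setting added after the data were seen, here and for ELF3 and FOXP1). TTC6, which overlaps the upstream FOXA1 transcript and not the coding one, had log2 fold changes of 1.24 (SE 0.56) in MM1R and 1.81 (SE 0.54) in MM1S with RSL3 and did not pass the test in either line (edgeR quasi-likelihood, Benjamini-Hochberg FDR 0.247 and 0.072). TTC6 was at most at 2.30 CPM, and the use of strand in counting is not given in the sources used here.

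ELF3 had the largest log2 change of the 6 genes, from very low levels. In MM1R cells it was at 0.364, 0.545 and 0.695 CPM without treatment (7, 10 and 12 counts), at 3.33, 1.08 and 5.01 CPM with RSL3 (62, 20 and 88 counts) and at 0.910, 0.832 and 1.15 CPM with Fer-1 + RSL3 (18, 16 and 21 counts). Untreated MM1S libraries held 2, 3 and 5 counts (0.104, 0.157 and 0.251 CPM), RSL3 libraries 58, 16 and 11 counts (3.81, 0.852 and 0.587 CPM), and Fer-1 + RSL3 libraries 7, 9 and 7 counts (0.363, 0.492 and 0.367 CPM). In each line, all RSL3 libraries were above all untreated ones, and so were all Fer-1 libraries, while Fer-1 libraries were all below RSL3 libraries in MM1S and overlapped with them in MM1R. The log2 fold change with RSL3 was 2.55 (SE 0.63) in MM1R and 3.28 (SE 0.74) in MM1S, and 2.03 in MM1S without replicate 1 of MM1S RSL3. ELF3 was higher with RSL3 in 6 of 6 passages, by between 0.87 and 4.21 on the log2 scale.

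With Fer-1, ELF3 was lower than with RSL3 alone in 6 of 6 passages (log2 fold change -1.70, SE 0.58, in MM1R and -2.06, SE 0.66, in MM1S, or -0.81 without replicate 1 of MM1S RSL3), and higher than in untreated cells in 6 of 6 passages (0.85, SE 0.66, and 1.22, SE 0.84). Without the library that stood apart, the MM1R values for ELF3 were -1.60 and 0.94. Of the mean RSL3 increase, 16.4% remained with Fer-1 in MM1R (18.9% without the library that stood apart) and 14.99% in MM1S (43.1% without replicate 1 of MM1S RSL3). The 95% intervals of the differences from untreated cells included 0 in both lines (-0.58 to 2.28 and -0.61 to 3.04). The antisense gene ELF3-AS1 was at 0.207 to 1.25 CPM, with log2 fold changes for RSL3 of 0.52 (SE 0.47) and 0.56 (SE 0.47) that did not pass the test (edgeR FDR 0.615 and 0.562).

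FOXP1 was moderately higher with RSL3 and stayed above the untreated level with Fer-1. In MM1R it was at 59.7, 51.3 and 51.1 CPM without treatment, at 107.8, 67.5 and 96.3 CPM with RSL3 and at 76.2, 70.9 and 77.4 CPM with Fer-1 + RSL3. In MM1S the values were 60.5, 59.2 and 61.7 CPM, then 122.0, 69.6 and 76.8 CPM, then 94.6, 72.9 and 67.8 CPM. Every treated library of a line was above every untreated one, and RSL3 and Fer-1 libraries overlapped in both lines. The log2 fold change for RSL3 was 0.74 (SE 0.19) in MM1R and 0.56 (SE 0.19) in MM1S (0.28 without replicate 1 of MM1S RSL3), and the change for Fer-1 + RSL3 relative to untreated cells was 0.47 (SE 0.19, and 0.51 without the library that stood apart) and 0.37 (SE 0.19, and 0.22 without replicate 1 of MM1S Fer-1 + RSL3). Of the mean RSL3 increase, 57.1% (62.5% without the library that stood apart) and 61.9% remained with Fer-1. The MM1S share rested on replicate 1 of MM1S RSL3, without which it was 141.1% and the fitted change from RSL3 to Fer-1 + RSL3 turned from -0.19 to 0.10.

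The FOXO genes changed less. FOXO1 in MM1R was at 13.5, 14.4 and 9.85 CPM without treatment, at 20.3, 13.3 and 13.5 CPM with RSL3 and at 15.9, 17.3 and 12.1 CPM with Fer-1 + RSL3, and the groups overlapped. In MM1S it was at 13.9, 22.6 and 20.6 CPM, then 39.0, 25.5 and 22.5 CPM, then 15.2, 25.5 and 21.4 CPM, again with overlap, and replicate 1 with RSL3 held the highest value. The log2 fold changes for RSL3 were 0.32 (SE 0.26) in MM1R and 0.60 (SE 0.25) in MM1S, and 0.34 in MM1S without that library (0.09 in MM1R without replicate 1 of MM1R RSL3).

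FOXO3 ranged from 440 CPM (untreated MM1R replicate 3) to 839 CPM (MM1R RSL3 replicate 1). Its MM1R libraries held 709, 618 and 440 CPM without treatment, 839, 642 and 760 CPM with RSL3 and 646, 603 and 629 CPM with Fer-1 + RSL3, and its MM1S libraries 693, 594 and 611, then 697, 561 and 579, then 567, 496 and 555 CPM. RSL3 and untreated libraries overlapped in both lines, and in MM1S all 3 Fer-1 libraries were below all untreated ones. The log2 fold change for RSL3 was 0.34 (SE 0.15) in MM1R (0.17 without replicate 3 of untreated MM1R) and -0.05 (SE 0.15) in MM1S, and from RSL3 to Fer-1 + RSL3 it was -0.25 (SE 0.15) and -0.18 (SE 0.15), lower in 6 of 6 passages, with -0.16 without replicate 1 of MM1R RSL3 and -0.08 without replicate 1 of MM1S RSL3. Without the library that stood apart, the MM1R change of FOXO3 from RSL3 to Fer-1 + RSL3 was -0.23. FOXO3 shares 35.6% of its 50-base sequences with FOXO3B on chromosome 17, and these are 43.1% of the FOXO3B sequences. FOXO3B was counted at 3.19 to 6.66 CPM, so reads could be split between the genes and both values are uncertain.

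FOXO4 was at 42.2, 29.8 and 27.2 CPM in untreated MM1R cells, 45.4, 28.9 and 31.4 CPM with RSL3 and 35.7, 26.6 and 31.0 CPM with Fer-1 + RSL3. MM1S libraries held 24.0, 17.3 and 15.01 CPM, then 24.8, 18.5 and 15.6 CPM, then 28.7, 16.2 and 15.3 CPM. Replicate 1 was the highest of its group in all 6 groups, and the treatments overlapped in both lines. Log2 fold changes for RSL3 were 0.09 (SE 0.26) in MM1R and 0.06 (SE 0.27) in MM1S, and 0 of 6 treatment comparisons separated the libraries.

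**Figure D2:**
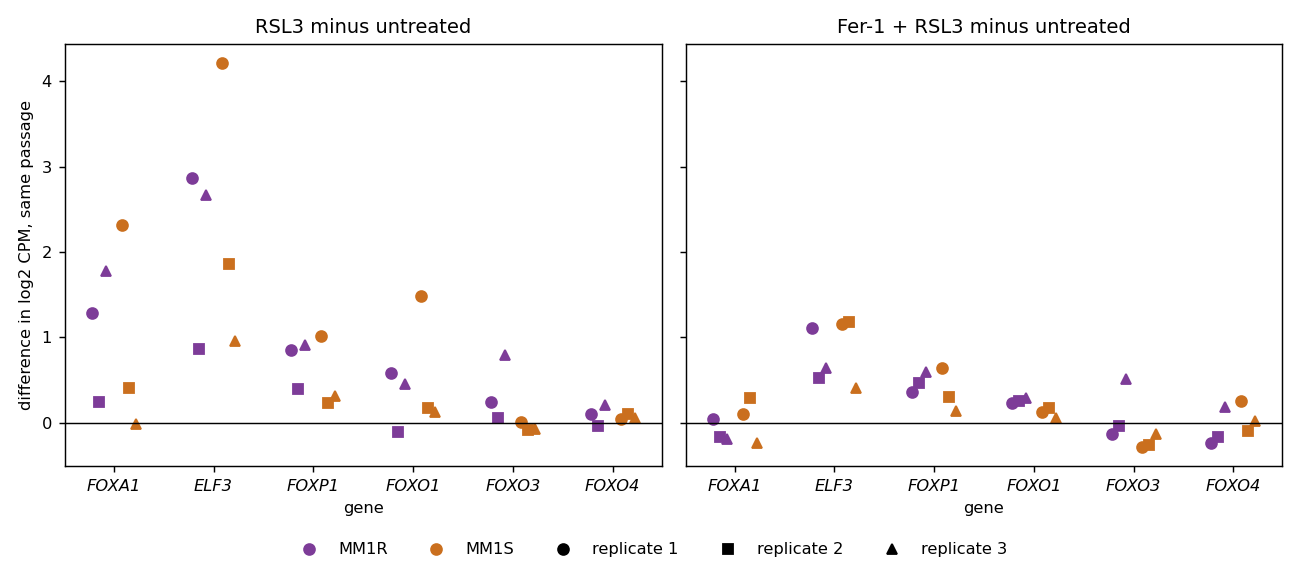
Differences in log2 CPM (vertical axis) between RSL3 and untreated cells (left) and between Fer-1 + RSL3 and untreated cells (right) for each gene (horizontal axis), with a point for each of the 6 passages. ELF3 and FOXP1 were above 0 in 6 of 6 passages in both panels, whereas FOXA1 was above 0 in 5 of 6 with RSL3 and in 3 of 6 with Fer-1.

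At an FDR under 0.05, the model across all genes called 2 of the 6 genes for RSL3 in MM1R (ELF3 and FOXP1), where 3.36% of the 14281 genes tested were called, and 1 in MM1S (ELF3), where 3.67% were called. Without replicate 1 of MM1S RSL3, 0 of 6 genes and 1.07% of all genes were called in MM1S. With passages as a block, which pairs the libraries of a passage, it called 2 in each line, while 13.1% and 13.3% of all genes were called. Since the genes were picked with these comparisons known, the counts are a description. For Fer-1 + RSL3 against RSL3, 0 of 6 genes and 0% of all genes were called in either line by edgeR without a block. An unadjusted edgeR p under 0.05 was held by 6.17% of all genes in MM1R and 5.75% in MM1S. Over all genes, edgeR with passages as a block called 25 in MM1R and 8 in MM1S, and DESeq2 called 39 and 7. Fer-1 + RSL3 against untreated cells gave 0 calls among the 6 genes in both lines, against 9.22% of all genes in MM1R and 4.61% in MM1S, and 1 call in MM1R (FOXP1) with passages as a block, where 22.2% of all genes were called. Libraries did not overlap between RSL3 and untreated cells for 3 of the 6 genes in MM1R and 2 in MM1S (25.7% and 24.9% of all genes), between Fer-1 + RSL3 and RSL3 for 1 in each line (13.4% and 8.79%), and between Fer-1 + RSL3 and untreated cells for 2 in MM1R and 3 in MM1S (30.6% and 28.3%). Being lower with Fer-1 than with RSL3 in all 6 passages held for FOXA1, ELF3 and FOXO3 (6.56% of all genes), and being higher with Fer-1 than without treatment in all 6 held for ELF3, FOXP1 and FOXO1 (17.1%). Being higher with RSL3 in all 6 passages was shared by 13.8% of all genes, and also being lower with Fer-1 than with RSL3 in all 6 passages by 1.44%, and ELF3 was the only member with both patterns.

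The lines are compared as a description too, since it is not known whether their difference entered the choice of the genes. Between untreated MM1R and MM1S cells, 0 of the 6 genes were called (edgeR), against 10.5% of all genes, and the libraries did not overlap for 2 (FOXO4 and ELF3), against 32.4% of all genes. FOXO4 was at 33.1 ± 7.99 CPM in MM1R and 18.8 ± 4.67 CPM in MM1S (SD, n = 3), with a log2 difference of 0.82 (SE 0.26). FOXO1 was lower in MM1R by a log2 difference of -0.60 (SE 0.26), with overlapping libraries. ELF3 was higher in MM1R by 1.598 (SE 0.81) on counts of 2 to 12, and FOXA1, FOXO3 and FOXP1 differed by -0.13, -0.10 and -0.16.

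The difference in response between the lines is built from the RSL3 and Fer-1 values on which the genes were selected, and is likewise given without a test. The RSL3 change in MM1R minus that in MM1S was 0.08 for FOXA1 (95% interval -1.09 to 1.25), -0.73 for ELF3 (-2.85 to 1.39), 0.18 for FOXP1 (-0.41 to 0.77), -0.28 for FOXO1 (-1.07 to 0.50), 0.39 for FOXO3 (-0.07 to 0.85) and 0.03 for FOXO4 (-0.78 to 0.84) on the log2 scale. All 6 intervals include 0. Without replicate 1 of MM1S RSL3 the value was 0.81 for FOXA1, 0.52 for ELF3 (a turned sign) and 0.47 for FOXP1. The model called 0 of 6 genes and 0% of all genes for this interaction, with 1.55% of all genes at an unadjusted p under 0.05, and 0 of 6 and 0% for the interaction of line and Fer-1, with 0.896% at an unadjusted p under 0.05. DESeq2 also gave 0 calls over all genes for both interactions.

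**Figure D3:**
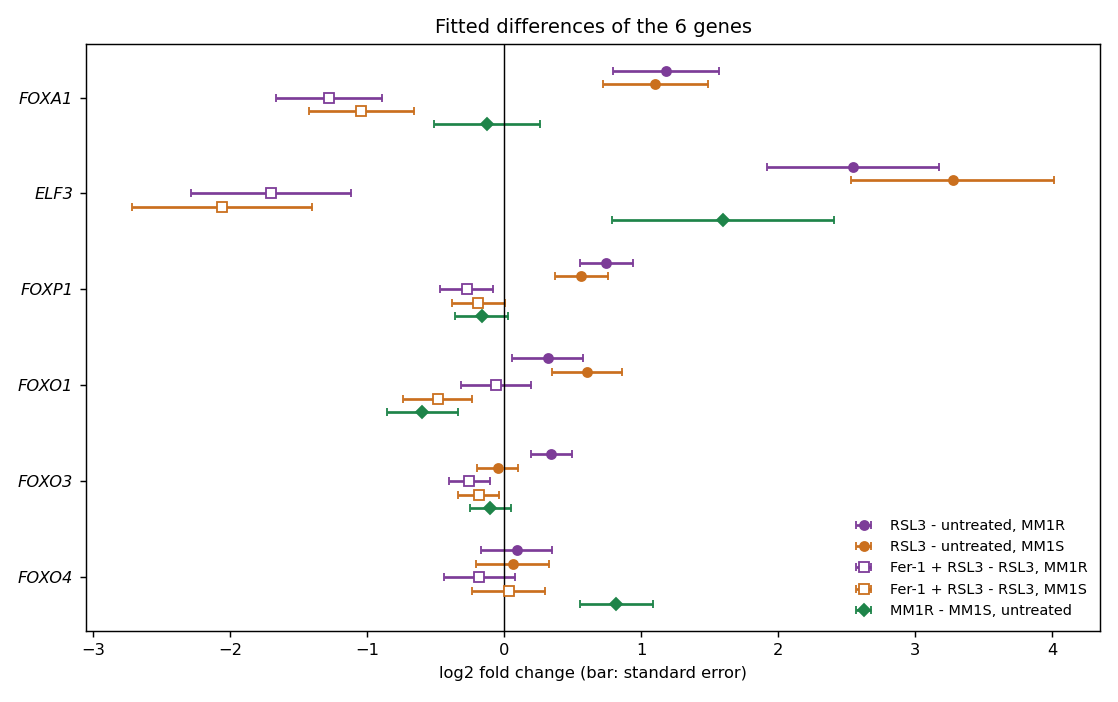
Fitted log2 fold changes (horizontal axis) with standard errors as bars for each gene (vertical axis): circles are RSL3 minus untreated, squares Fer-1 + RSL3 minus RSL3, and diamonds MM1R minus MM1S in untreated cells. FOXA1 and ELF3 show changes of opposite sign for RSL3 and Fer-1 in both lines, and FOXO4 shows its largest difference between the lines.

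Among the other members of both families, 1 FOX gene rose with RSL3 in each line and 1 ETS gene in MM1R. Of 44 further FOX genes, 15 were tested and FOXI3 was the one called (6.67%, against 3.36% of all genes in MM1R and 3.67% in MM1S), a forkhead factor of ectodermal development. FOXI3 went from 1.51 ± 0.321 to 4.73 ± 1.96 CPM in MM1R (log2 fold change 1.64, SE 0.36, edgeR FDR 0.021) and from 3.20 ± 0.670 to 7.96 ± 3.44 CPM in MM1S (1.31, SE 0.34, edgeR FDR 0.0415). None of these FOX genes was called in 5 of the 18 fits that left out 1 library in MM1R and in 12 of 18 in MM1S. With Fer-1 FOXI3 was at 3.07 ± 0.451 and 5.61 ± 1.31 CPM, between the untreated and the RSL3 level. It did not pass the test against RSL3, which 0% of all genes passed. The median over the 15 genes was -0.17 in MM1R and -0.06 in MM1S, against 0.00 over all genes. FOXA2, the closest relative of FOXA1, had 0 counts in every library, and so did FOXO6 but for 1 read.

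Of 27 further ETS genes, 21 were tested, and 1 was called in MM1R (4.76%, against 3.36% of all genes). ELK3, a ternary complex factor of the serum response, rose in MM1R from 95.9 ± 11.1 to 137.2 ± 4.38 CPM (log2 fold change 0.52, SE 0.13, edgeR FDR 0.0445), and 0 ETS genes passed the test in MM1S. None of these ETS genes was called in 14 of the 18 fits that left out 1 library. With Fer-1 ELK3 was at 141.1 ± 12.6 CPM. The median of the 21 genes was 0.18 in MM1R and 0.07 in MM1S. EHF, the close epithelial relative of ELF3, stayed at or below 0.525 CPM on average in each group.

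Genes known as FOXO targets were more often higher than lower with RSL3. Of 34 such genes, 30 were tested. In MM1R, 28 were higher and 6 rose (BCL2L11, GADD45A, KLF2, KLF6, MXI1 and PIK3IP1), and in MM1S 21 were higher and 4 rose (FBXO32, GADD45A, KLF2 and KLF6), with 0 that fell in either line (edgeR, FDR under 0.05). Of all genes, 50.004% and 50.3% were higher and 3.36% and 3.67% were called. The medians were 0.43 and 0.37. With passages as a block, the counts were 15 and 12, against 13.1% and 13.3% of all genes. Leaving out 1 library gave 0 to 10 calls in MM1R, with 0 without replicate 1 of untreated MM1R, and 1 to 8 in MM1S, with 1 without replicate 1 of MM1S RSL3. The list was written with earlier results of these data known, many of its genes also respond to other stress pathways, and binding of FOXO factors was not measured.

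KLF2, a Krüppel-like factor that restrains lymphocyte growth, went from 49.1 ± 6.35 to 426 ± 426 CPM in MM1R (log2 fold change 3.12, SE 0.67, edgeR FDR 0.0179) and from 60.7 ± 22.5 to 412 ± 405 CPM in MM1S (2.76, SE 0.66, edgeR FDR 0.028). KLF6, another Krüppel-like factor, had log2 fold changes of 2.36 (SE 0.47, edgeR FDR 0.0123) and 1.71 (SE 0.46, edgeR FDR 0.0487). FBXO32, the ubiquitin ligase atrogin-1 of muscle atrophy, rose in MM1S from 12.3 ± 4.41 to 151 ± 226 CPM (3.62, SE 0.94, edgeR FDR 0.0422) and had 2.95 (SE 0.92, edgeR FDR 0.0901) in MM1R. Its SD with RSL3 in MM1S exceeded its mean, with a largest count of 6272. KLF2 likewise had SDs close to its means with RSL3 in both lines. These RSL3 means thus lean on single high libraries. BCL2L11, which encodes the pro-apoptotic protein BIM, rose in MM1R from 179 ± 44.2 to 612 ± 290.2 CPM (1.78, SE 0.44, edgeR FDR 0.037). In MM1S its change was 1.51 (SE 0.44, edgeR FDR 0.063), and its RSL3 libraries spread widely (614 ± 521 CPM). With Fer-1 BCL2L11 was at 192 ± 29.8 CPM in MM1R and 220 ± 4.19 CPM in MM1S against 179 and 216 CPM in untreated cells. KLF2, KLF6 and FBXO32 instead stayed above their untreated means with Fer-1 in both lines. In MM1R and MM1S, KLF2 was at 148 ± 22.7 and 181 ± 43.1 CPM against 49.1 and 60.7 CPM. KLF6 was at 356 ± 24.6 and 374 ± 43.6 CPM against 153 and 185 CPM, and FBXO32 at 29.2 ± 8.42 and 26.4 ± 14.7 CPM against 10.6 and 12.3 CPM. No gene of the list passed the test for Fer-1 + RSL3 against RSL3, and neither did any other gene (0% of all genes in either line). Of the 30 tested targets, 9 in MM1R and 12 in MM1S were higher with Fer-1 than with RSL3 alone, with medians of -0.14 and -0.04.

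**Figure D4:**
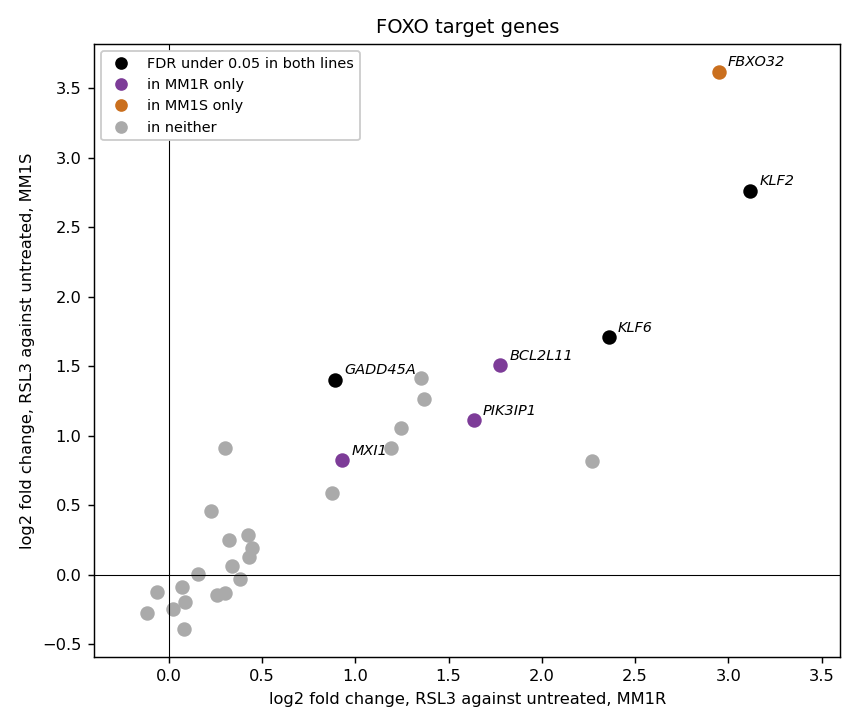
Log2 fold changes of the 30 tested FOXO target genes with RSL3 in MM1R (horizontal axis) and MM1S (vertical axis), with named points for genes that passed an FDR under 0.05. KLF2, KLF6 and GADD45A passed in both lines, and most other genes lie at small positive values in MM1R.

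Among 36 genes that regulate FOXO factors, such as AKT, PI3K and 14-3-3 genes and deacetylases, 32 were tested. Of these, 0 passed in MM1R, against 3.36% of all genes, and 1 in MM1S (3.125%), near the 3.67% of all genes. This was SIRT2, a deacetylase, which went in MM1S from 0.495 ± 0.147 to 1.79 ± 1.35 CPM (log2 fold change 1.82, SE 0.48, edgeR FDR 0.046), on at most 51 counts. In MM1S no regulator was called in 13 of the 18 fits that left out 1 library. Medians were 0.09 and -0.09. Of 20 epithelial genes that are commonly expressed with FOXA1 and ELF3 in epithelia, 5 were tested. Of these, 0 passed in either line (3.36% and 3.67% of all genes), with medians of 0.49 and 0.53.

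Genes that most resembled each member were ranked by Pearson's r of log2 CPM over the 18 libraries after the mean of each line was removed. The libraries share treatments and passages, so r describes likeness only. FOXA1 was most like TRIB1 (0.971), JUND (0.967), ARF6 (0.965), ZFP36 (0.957) and RELL1 (0.946). ELF3 was most like the metallothionein MT1X (0.972), NAMPT (0.970), RAP2B (0.963), the metallothionein MT2A (0.963) and MIDN (0.962). FOXP1 was most like MPZL3 (0.973), IRS2 (0.965) and NFKBIZ (0.959), and FOXO1 most like RTN4 (0.935), TBC1D9 (0.934) and PLEK (0.929). For FOXO3 the nearest genes were FGD4 (0.873), FNDC3B (0.872) and RABGAP1L (0.861), and for FOXO4 they were CALCOCO1 (0.951), ACCS (0.938) and SATB1 (0.924).

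Among the members, FOXA1 and ELF3 were most alike (r = 0.869, n = 18 libraries), followed by ELF3 and FOXP1 (0.850) and by FOXA1 and FOXO1 (0.743). FOXO4 had an r of 0.0444 to 0.575 with the others. HMOX1, the heme oxygenase gene that marks the oxidative response to RSL3, was at 9.09 to 25.4 CPM in untreated libraries, 237 to 2298 CPM with RSL3 and 685 to 1463 CPM with Fer-1 + RSL3, so it stayed high with Fer-1. Its r was 0.344 with FOXA1, 0.681 with ELF3 and 0.745 with FOXP1. The libraries with the highest HMOX1 among RSL3 libraries of each line, replicate 3 of MM1R and replicate 1 of MM1S, also held the highest FOXA1 and ELF3. The other RSL3 libraries did not keep this order. MM1R replicates 1 and 2 had close HMOX1 (237 and 243 CPM), but FOXA1 was at 38.2 and 18.4 CPM and ELF3 at 3.33 and 1.08 CPM. MM1S replicate 3 had more HMOX1 than replicate 2 (434 and 310 CPM), but less FOXA1 (17.1 and 23.3 CPM) and ELF3 (0.587 and 0.852 CPM).

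**Figure D5:**
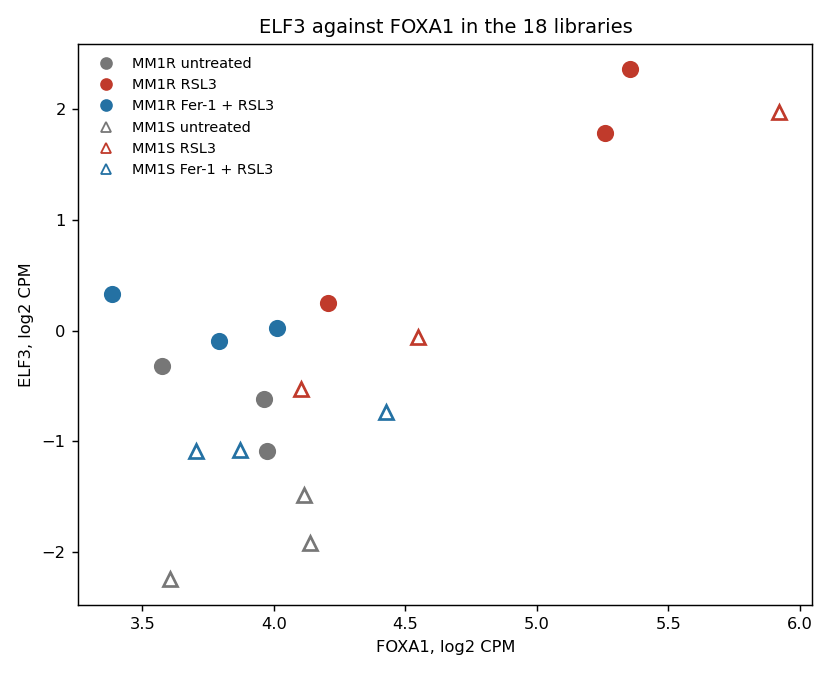
ELF3 (vertical axis) against FOXA1 (horizontal axis) in log2 CPM, with a point for each of the 18 libraries, circles for MM1R and triangles for MM1S, coloured by treatment. The 3 points at the upper right are replicates 1 and 3 of MM1R RSL3 and replicate 1 of MM1S RSL3.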

How the data were processed

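RNA of 18 libraries (6 groups of 3) was sequenced as paired reads on a BGISEQ-500. The authors checked reads with FastQC 0.11.5 and aligned them to hg19 with STAR 2.7.3a. They deposited raw read counts for 43735 genes, and a second table (signal, 29553 genes), which equals those counts over a single factor per library (0.834 to 1.08). The counting tool, annotation and use of strand are not given in the sources used here.

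Here, genes with low counts were removed with filterByExpr (minimum count 10), which kept 14281 genes. Raw counts were fitted with edgeR 4.0.16 (R 4.3.3, TMM factors 0.864 to 1.06) in a model of 6 group means with 12 residual degrees of freedom, and compared with the quasi-likelihood test. P-values were adjusted by Benjamini-Hochberg over all genes tested, and FDR under 0.05 counted as called. CPM used TMM library sizes, and log2 CPM a prior count of 2. The steps were tested on simulated data. Replicate numbers are passages in the labels and pair libraries within a line. Libraries that share a passage deviated together from the means of their groups, with correlations of 0.0338 to 0.516 in MM1R (median 0.250, 9 pairs) and 0.216 to 0.681 in MM1S (median 0.416, 9 pairs).

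The 6 genes and the gene lists were chosen with earlier results of these data known. Comparisons of the 6 genes are therefore given without a test. Named genes are the 6 members, up to 4 genes per list called in an RSL3 comparison in each direction with the largest mean change first, the genes most like each member (5 for FOXA1 and ELF3, 3 for the others), NR3C1, HMOX1, and genes that can share reads with a member. Other genes named were added after their values were seen. Promoter windows were taken from RefSeq and gene positions from GENCODE on GRCh37. Alternatives were passages as a block, DESeq2 1.42.0, RLE or upper-quartile scaling, other filters, only the groups compared, a log2 fold change over 1, limma 3.58.1 on the normalized values (log2 of the value plus 1), and leaving out each library.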

Additional observations from a re-analysis of the deposited data

How the results depend on the processing

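Counts of called genes depended on the setting more than fold changes did. Among the 6 genes, the 2 calls for RSL3 in MM1R became 1 with upper-quartile scaling or a log2 fold change over 1 (3.47% and 1.197% of all genes called), and the 1 call in MM1S became 2 with passages as a block or DESeq2, 4 without a filter and 0 with only the groups compared (13.3%, 7.23%, 4.36% and 0.0228% of all genes). For Fer-1 + RSL3 against RSL3, 0 became 2 in each line without a filter (0.973% and 1.11% of all genes). Against untreated cells in MM1R, 0 became 1 with the block or only the groups compared (22.2% and 9.86%). For untreated lines, 0 became 1 with DESeq2, the normalized values or only the groups compared (13.4%, 11.2% and 11.2%), and 2 without a filter (6.65%). FOXO targets were 15 (block), 11 (DESeq2) and 13 (no filter) in MM1R, and 12, 8, 13, 0 (only the groups compared) and 2 (normalized values) in MM1S. ETS genes in MM1R were 3 (block), 2 (DESeq2), 4 (no filter) and 0 (log2 fold change over 1). Other FOX genes in MM1S were 2 (block) and 0 (only the groups compared, normalized values). FOXO regulators were 6 (block) and 1 (no filter) in MM1R, and 4 (block), 3 (DESeq2), 2 (upper-quartile scaling, no filter) and 0 (only the groups compared, normalized values) in MM1S. Beside these list counts, calls over all genes in MM1R were 13.1% (block), 6.61% (DESeq2), 3.64% (no filter) and 1.197% (log2 fold change over 1). In MM1S they were 13.3% (block), 7.23% (DESeq2), 4.36% (no filter), 3.75% (upper-quartile scaling), 3.45% (normalized values) and 0.0228% (only the groups compared). Leaving out each library in turn gave 0 to 3 calls among the 6 genes for RSL3 in MM1R, 0 to 2 in MM1S, 0 to 1 for Fer-1 + RSL3 against untreated MM1R and 0 to 1 for untreated lines, and 0 to 10 and 1 to 8 FOXO targets, 0 to 3 ETS genes (MM1R), 0 to 1 other FOX genes in each line, and 0 to 2 FOXO regulators in each line. The cause was not tested. RSL3 calls among the 6 genes fell to 0 in MM1R when any 1 untreated MM1R library or replicate 1 or 3 of MM1R RSL3 was left out. Calls over all genes fell too, from 3.36% to 0.774%, 1.08% and 1.17% without untreated replicates 1, 2 and 3, and to 0.797% and 1.37% without those RSL3 replicates. In MM1S the 6 genes had 0 calls without any 1 untreated MM1S library or replicate 1 of MM1S RSL3. There, calls over all genes fell from 3.67% to 0.575%, 1.34%, 1.17% and 1.07%, in that order. FOXO targets fell to 0 in MM1R without replicate 1 of untreated MM1R. No paired analysis was possible for the untreated lines because passages are nested in lines. ELF3 is limited by its depth of 2 to 88 counts.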

Other observations

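In untreated cells, several genes of the lists differed between the lines at an FDR under 0.05. FOXK1, a forkhead repressor of autophagy genes, was higher in MM1R (log2 difference 0.86, SE 0.16, edgeR FDR 0.00264). The ETS genes ELF4 (-0.69, SE 0.17, edgeR FDR 0.018) and ETS1 (-0.82, SE 0.24, edgeR FDR 0.0385) were lower in MM1R. CDKN1A, a FOXO and p53 target that blocks the cell cycle, was higher in MM1R (1.67, SE 0.36, edgeR FDR 0.00764), as was MDM2 (1.01, SE 0.24, edgeR FDR 0.0121), which encodes the ubiquitin ligase of p53. The FOXO regulators CDK2, MAPK8, PIK3R1 and PRKAA1 were lower in MM1R, by log2 differences of -0.63, -0.52, -0.66 and -0.44 (edgeR FDR 0.0106, 0.00357, 0.0155 and 0.0274). KRT18, a keratin of simple epithelia, was called as higher in MM1R (edgeR FDR 0.00599) on at most 8 counts in any untreated library. In all, 1 of 15 FOX genes (6.67%), 2 of 21 ETS genes (9.52%), 1 of 30 FOXO targets (3.33%), 5 of 32 FOXO regulators (15.6%) and 1 of 5 epithelial genes (20%) passed, against 10.5% of all genes. These genes were named after their values were seen.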
